A study of Mus musculus with 12 samples.

Results

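A set of 9 genes was examined as a family, the glutathione transferase genes Gsta2, Gsta4, Gstm1, Gstm5, Gstp1, Gsto1, Mgst1, Mgst2 and Mgst3, out of 23413 genes in the deposited count table. They were taken by symbol, and all 9 symbols were found. Gsta2 was included because earlier results of these libraries showed it almost only with vitamin D3, so the family was chosen by measured values, the CPM with and without vitamin D3, and that comparison is described here without a test. RNA-seq of alveolar macrophages, the phagocytes that live on the inner surface of the mouse lung, gave 12 libraries, 2 in each of 6 groups. Fresh lavage cells came from mice of WT or VDR knockout genotype, aged 4 or 10 weeks. The VDR knockout lacks, by its label, the vitamin D receptor, a ligand-activated transcription factor. WT lavage cells of unstated age were also kept for 24 h in culture medium without an agent or with 50 nM vitamin D3. By their source names, both cultures of replicate 1 came from cells called WT1, while replicate 2 came from WT2 without and WT3 with vitamin D3. The sources used here give neither the strain, nor the number of mice behind a library, nor the part of Vdr that was removed.

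Total counts ranged from 10409572 to 23233674 per library. The labels do not say that the libraries of a group came from separate mice, so p-values measure the spread between libraries, which may be technical in part. At 10 weeks replicate 2 of each genotype was female by its Xist level (800.3 and 787.3 CPM, CPM being counts relative to the library's total, scaled by TMM), and the other 10 libraries were under 1 CPM. Vdr RNA was still present in the libraries labelled knockout, at 84.2 and 45.0 CPM against 79.6 and 126.9 CPM in wild type at 10 weeks, and at 45.9 and 31.2 against 56.5 and 57.7 CPM at 4 weeks. The description codes of knockout replicate 1 and wild-type replicate 2 at 10 weeks name the other genotype; the genotype label was followed. Cyp24a1, the vitamin D-degrading enzyme induced by the receptor, was at 485 and 215.6 CPM with vitamin D3 and at 0.383 and 0.243 CPM without. All 14 alveolar macrophage markers in the table exceeded 1 CPM in some library, with Chi3l3 at 5044 CPM or more in every library.

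Glutathione transferases join the tripeptide glutathione to reactive, electron-poor compounds, which makes them more soluble and ready for export. Cytosolic members form classes, here alpha (Gsta2, Gsta4), mu (Gstm1, Gstm5), pi (Gstp1) and omega (Gsto1). The microsomal members Mgst1, Mgst2 and Mgst3 belong to an unrelated membrane family that also holds leukotriene C4 synthase and the prostaglandin E synthase gene Ptges. Many of these genes are known targets of NRF2, the transcription factor that answers oxidative and electrophilic stress through antioxidant response elements. In the lung, glutathione transferases are also abundant in bronchiolar club cells.

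Gsta2 (chr9:78331018-78355788, minus strand) and Gsta4 lie on chromosome 9, Gstm1 (chr3:108012255-108017973, minus strand), Gstm5 and Mgst2 on chromosome 3, Gstp1 and Gsto1 on chromosome 19, Mgst1 on chromosome 6 and Mgst3 on chromosome 1, in GENCODE M21 (GRCm38). Some members have close copies in the genome, and the sequences that tell them apart bear on their counts. In the same annotation, the coding sequence of Gsta2 is 97.6% identical to that of Gsta1 and 98.5% to that of the predicted gene Gm10639, and the longest identical runs of their transcripts are 253 and 260 bases. Gstp1 is 98.1% identical to Gstp2 over the coding sequence, with an identical run of 369 bases. Gstm1 is at most 89.4% identical to another mu gene, Gstm3. No source used here says how reads that fit several copies were counted, so Gsta2 and Gstp1 are uncertain to that extent. The coding stretch of 60 bases in which Gsta2 differs most from its copies (coding bases 469 to 528, 5′ to 3′) is shown with capitals where a copy differs from Gsta2, 5 bases in Gsta1 and 3 in Gm10639.
Gsta2: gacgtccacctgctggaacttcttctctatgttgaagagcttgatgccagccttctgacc
Gsta1: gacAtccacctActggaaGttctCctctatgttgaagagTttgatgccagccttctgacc
Gm10639: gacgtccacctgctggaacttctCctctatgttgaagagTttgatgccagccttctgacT

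Upstream sequences from RefSeq (GRCm38.p6) were found for 8 of the 9 members. The 250 bases before the start site of Gsta2 (chr9:78347146-78347395, minus strand, from the RefSeq start, which lies within the GENCODE gene) are shown because this gene had counts almost only with vitamin D3. Capitals mark GCGTG, the xenobiotic response core bound by the aryl hydrocarbon receptor.
Gsta2: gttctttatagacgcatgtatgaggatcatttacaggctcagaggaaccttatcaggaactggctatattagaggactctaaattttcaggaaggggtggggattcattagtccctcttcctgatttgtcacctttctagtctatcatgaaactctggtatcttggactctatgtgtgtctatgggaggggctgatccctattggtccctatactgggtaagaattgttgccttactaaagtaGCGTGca
This upstream stretch is 70.5% identical to that of Gsta1, less than the coding sequences are. Windows of 300 bases (250 before and 50 after the start) were searched on both strands for GCGTG and for the antioxidant response core TGACNNNGC. They were also searched for a direct repeat with 3 bases between arms spelled GGTCA or GTTCA. The repeat bound by the vitamin D receptor has longer arms with that gap, so this search does not cover it. A match says only that these letters are there. TGACNNNGC occurred in 2 of 8 members, Gstm5 and Mgst1, and in 12.4% of all 32851 windows. GCGTG occurred in 5 of 8 members (Gsta2, Gstm1, Gstm5, Gstp1 and Mgst3) and in 32.4% of all windows. The direct repeat occurred in 0 of 8 members and in 0.399% of all windows. Members were counted by gene, with a match in any window, and the background by window. Gstm1 and Mgst1 had 2 windows each. GCGTG was in both windows of Gstm1, and TGACNNNGC in 1 of those of Mgst1. The matches to TGACNNNGC are in capitals in these 60-base stretches, both printed on the plus strand, which is the strand of either gene. In Gstm5 (chr3:107895786-107895845) the match reads forward, and in Mgst1 (chr6:138140445-138140504) it is on the opposite strand.
Gstm5: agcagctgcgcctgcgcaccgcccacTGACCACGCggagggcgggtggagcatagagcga
Mgst1: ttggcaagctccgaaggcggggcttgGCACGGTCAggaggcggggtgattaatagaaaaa

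Per kilobase of transcript, which allows genes to be compared, Gstm1, Mgst1 and Gsto1 were the most abundant members in fresh cells. In fresh wild type at 10 weeks their mean levels were 187, 182 and 145 CPM per kb, followed by Gstp1 (76.5) and Mgst3 (50.0). Mgst2 (8.11), Gstm5 (3.90) and Gsta4 (0.147) lay far lower, and Gsta2 was at 0.0283. The order of the 3 leading genes was not the same in every fresh group: Mgst1 led in knockout at 10 weeks and Gstm1 in the other 3. In culture Gstm1 led by a wide margin, with 1379 CPM per kb without and 837 with vitamin D3, or 69.4% and 60.8% of the members' summed level. In the fresh groups its share lay between 26.2% and 39.0%. These levels use transcript lengths from an annotation that is not the authors'.

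**Figure D1:**
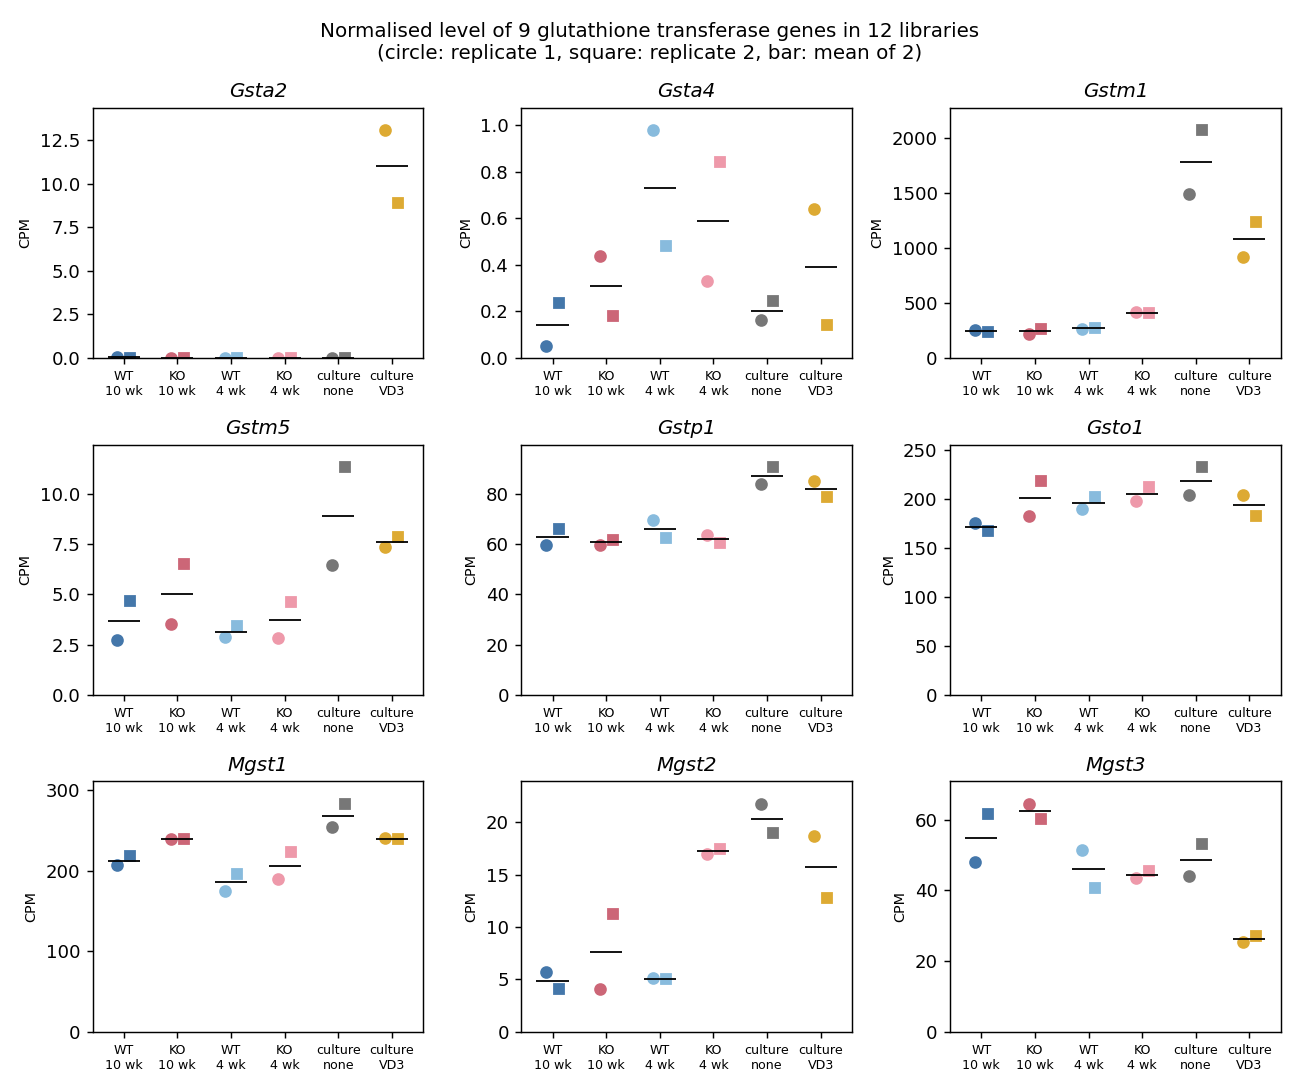
Normalised level (CPM, linear axes from 0) of each of the 9 genes in the 12 libraries by group; circles are replicate 1, squares replicate 2 and bars the mean of 2. Gsta2 is near 0 outside vitamin D3, Gstm1 is above 900 CPM in all 4 cultured libraries and under 420 CPM in all 8 fresh ones, and Mgst3 is lowest with vitamin D3.

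Gsta2, an alpha-class transferase known for conjugating electrophiles and reducing lipid peroxides, had 266 and 127 counts in the libraries with vitamin D3, or 13.1 and 8.92 CPM. It had 1 count in fresh wild-type replicate 1 at 10 weeks (0.0492 CPM) and 0 counts in the other 9 libraries. A count of 0 allows up to 3 counts, which is 0.145 to 0.271 CPM in those 9 libraries, by counting error only. Both libraries with vitamin D3 thus lay above all others. Set against a floor of 3 counts over the untreated cultures, the summed level was at least 116-fold higher, and the exact 95% lower limit from the counts themselves was 93.9-fold. With the floor on 1 untreated library the bound was 46.9-fold without untreated replicate 1 and 69.3-fold without untreated replicate 2. Against the 1 count in fresh wild type at 10 weeks it was 375 times as high (exact 95% interval for counting error, 66.8 to 14831). These values chose the gene and are a description.

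The close copies of Gsta2 did not share its level. Gsta1 had 6 and 2 counts with vitamin D3 and 2 and 1 without, which is 2.36 times as high (exact 95% interval 0.567 to 13.8). Gm10639 had 4 and 0 counts with vitamin D3 and 1 and 0 without, and the further copy Gm3776 had 0 in every library. Gsta4, the other alpha-class member, which acts on the lipid peroxidation product 4-hydroxynonenal, was scarce throughout, at 0.0492 to 0.978 CPM. With vitamin D3 it was at 0.639 and 0.140 CPM and without at 0.164 and 0.243, so the groups overlapped.

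Among the other members, Gstm1 and Mgst3 were lower with vitamin D3 in both replicates, without overlap. Gstm1, a mu-class transferase for a broad range of electrophiles, was at 1486 and 2069 CPM without and at 921 and 1238 CPM with vitamin D3. The fitted log2 fold change was -0.72 ± 0.17 (SE). Mgst3, a microsomal transferase with peroxidase activity, was at 44.2 and 53.0 CPM without and at 25.3 and 27.0 CPM with vitamin D3. Its fitted log2 fold change was -0.89 ± 0.15, and the vitamin D3 libraries were the lowest of all 12. Replicates 1 and 2 differ in their series of title numbers; within replicate 1 and within replicate 2, Gstm1 differed by -0.69 and -0.74 and Mgst3 by -0.78 and -0.95 on the log2(CPM + 1) scale.

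Mgst2, a microsomal enzyme that can make leukotriene C4, was at 21.7 and 18.9 CPM without and at 18.7 and 12.8 CPM with vitamin D3. Mgst1, the abundant microsomal transferase, was at 254 and 283 CPM without and at 241 and 239 CPM with it. Neither pair overlapped, and the fitted log2 fold changes were -0.37 ± 0.34 and -0.16 ± 0.11. Gstm5, Gstp1 and Gsto1 overlapped between groups, with fitted log2 fold changes of -0.21 ± 0.38, -0.09 ± 0.10 and -0.17 ± 0.12. In all, 4 of 8 members other than Gsta2 were lower without overlap and 0 higher, where 24.7% of all 12748 tested genes were lower and 24.2% higher without overlap. The median log2 fold change was -0.19 over these 8 members and 0 over all genes. Nothing is read from these counts, since the comparison helped to choose the family. Other-cell markers moved too. Neutrophil markers summed to 76.3 to 82.6 CPM without and to 60.7 to 65.6 CPM with vitamin D3, but went both ways. Csf3r was at 26.9 and 19.3 CPM without and 7.38 and 8.50 CPM with it. S100a8 was at 15.9 and 22.0 CPM without and 9.29 and 11.6 CPM with it. Cxcr2 was higher with it, at 44.1 and 45.5 CPM against 33.5 and 41.2 CPM. Club and ciliated markers summed to 177 to 194 CPM without and 204 to 231 CPM with vitamin D3. Most of the club and ciliated sum was Tubb4b, a tubulin gene, at 168 and 166 CPM without and 197 and 209 CPM with vitamin D3. Their part in the members' levels was not tested.

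**Figure D2:**
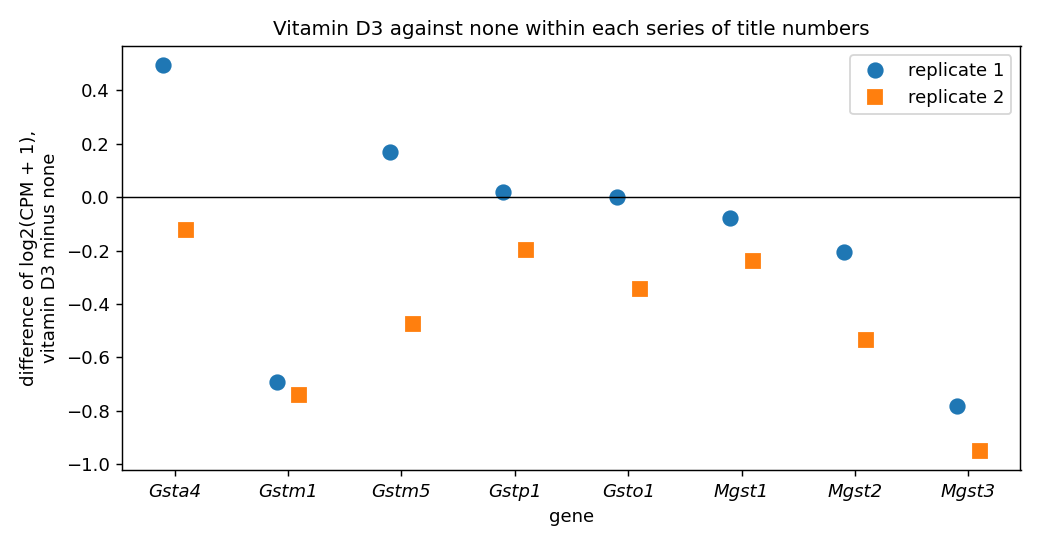
Difference of log2(CPM + 1) between vitamin D3 and untreated culture within replicate 1 (circles) and replicate 2 (squares) for the 8 members other than Gsta2. Gstm1 and Mgst3 lie at -0.69 or lower in both, while Gsta4, Gstm5, Gstp1 and Gsto1 lie on different sides of 0.

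Culture itself went with higher levels of most members. Between untreated culture and fresh wild-type cells, 6 of 8 members rose against 10-week cells (edgeR adjusted p under 0.05), where 21.2% of all tested genes rose and 42.4% were called in either direction. Against 4-week cells 5 of 8 rose, where 20.1% of all genes rose and 39.7% were called. The median log2 fold change over the 8 members was 0.55 and 0.47, and over all genes -0.02 and -0.02. Gstm1, Gstm5, Gstp1, Mgst1 and Mgst2 rose against both ages, and 0 members fell. The age of the cultured cells' donors is not stated, and both comparisons share the untreated cultures.

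The mu and pi classes were led by Gstm1. It was at 249.7 and 232 CPM in fresh wild type at 10 weeks, at 267 and 272 CPM at 4 weeks, and at 1486 and 2069 CPM in untreated culture. This was 7.38-fold and 6.60-fold higher, or 2.88 ± 0.18 and 2.72 ± 0.18 on the log2 scale (edgeR adjusted p = 4.32e-07 and 6.63e-07). Gstm5, a mu-class gene best known from testis and brain, was at 2.71 and 4.67 CPM at 10 weeks, 2.86 and 3.43 CPM at 4 weeks and 6.46 and 11.3 CPM in culture. Its log2 fold changes were 1.28 ± 0.40 and 1.48 ± 0.40 (edgeR adjusted p = 0.0221 and 0.0118). Gstp1, the pi-class enzyme that also binds the stress kinase JNK, was at 59.5 and 66.01 CPM at 10 weeks, 69.5 and 62.7 CPM at 4 weeks and 84.0 and 90.7 CPM in culture. It rose by log2 0.48 ± 0.10 and 0.40 ± 0.10 (edgeR adjusted p = 0.00262 and 0.00768), while its near-identical copy Gstp2 was at 2.31 CPM or less in every library.

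Among the microsomal members, Mgst2 was at 5.66 and 4.12 CPM at 10 weeks, 5.10 and 5.02 CPM at 4 weeks and 21.7 and 18.9 CPM in culture. It rose 4.11-fold and 4.02-fold (log2 2.04 ± 0.37 and 2.01 ± 0.37, edgeR adjusted p = 0.000959 and 0.0011). Mgst1 was at 208 and 218 CPM at 10 weeks, 175 and 196 CPM at 4 weeks and 254 and 283 CPM in culture. It rose by log2 0.33 ± 0.11 and 0.53 ± 0.11 (edgeR adjusted p = 0.0263 and 0.00224). Mgst3 was at 48.1 and 61.6 CPM at 10 weeks and 51.3 and 40.7 CPM at 4 weeks, a range that spans its cultures. Its log2 fold changes were -0.17 ± 0.15 and 0.08 ± 0.15 (edgeR adjusted p = 0.369 and 0.699).

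Gsto1, the omega-class enzyme that reduces dehydroascorbate and methylated arsenic, was at 175 and 168 CPM at 10 weeks, 189.8 and 202 CPM at 4 weeks and 204 and 232 CPM in culture. It rose against 10-week cells by log2 0.35 ± 0.12 (edgeR adjusted p = 0.0305), and against 4-week cells the log2 fold change was 0.16 ± 0.12 (edgeR adjusted p = 0.306). Gsta4 did not pass, at 0.61 ± 1.26 and -1.81 ± 0.99 on the log2 scale (edgeR adjusted p = 0.709 and 0.157).

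When each library of a comparison was left out in turn, Gstm1 and Mgst2 stayed past the threshold in each of the 4 fits against either age, with a highest adjusted p of 2.01e-05 and 0.0123 against 10 weeks and 3.09e-05 and 0.0129 against 4 weeks. Against 10 weeks Gstp1 also did (highest adjusted p = 0.0362). Gsto1 and Mgst1 lost the call there when either wild-type library or untreated replicate 2 was left out, with highest adjusted p of 0.181 and 0.144, and Gstm5 without wild-type replicate 1 and without untreated replicate 2 (0.182), so that 3 members remained called without wild-type replicate 1 or untreated replicate 2. Against 4 weeks Mgst1 stayed (highest 0.0379), Gstm5 lost the call without wild-type replicate 1 and without untreated replicate 2 (0.0989), and Gstp1 without wild-type replicate 2 (0.0785). Within replicate 1 and replicate 2, Gstm1 was higher in culture than at 10 weeks by 2.57 and 3.15, and Mgst2 by 1.77 and 1.96, on the log2(CPM + 1) scale. At 4 weeks all libraries share 1 series of title numbers; with untreated replicate 2, the culture of that series, the differences were 2.94 and 1.72.

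**Figure D3:**
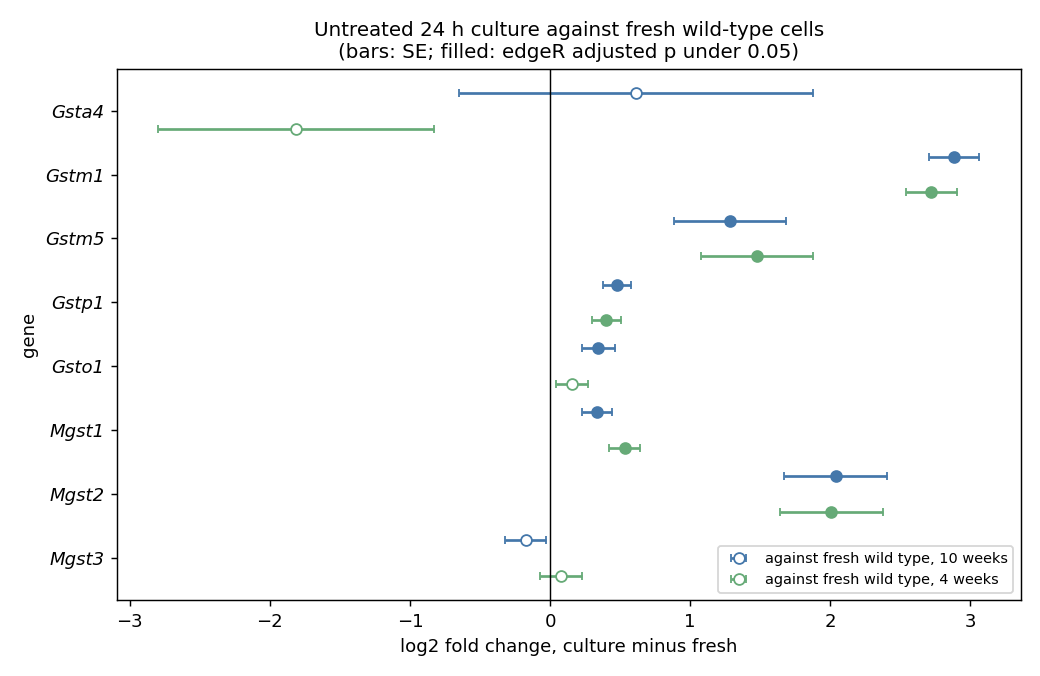
Log2 fold change of 8 members between untreated culture and fresh wild-type cells at 10 weeks (blue) and 4 weeks (green), with SE bars; filled points passed an edgeR adjusted p of 0.05. Gstm1 lies at 2.88 and 2.72 and Mgst2 at 2.04 and 2.01, and Mgst3 lies near 0.

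Markers of other cells moved with culture. The 9 listed club and ciliated cell markers in the table summed to 380 to 492 CPM in fresh wild type and to 177 to 194 CPM in untreated culture, with Scgb1a1, the defining club cell gene, at 10.7 to 30.5 CPM fresh and at 2.19 and 7.77 CPM in culture. The 11 alveolar epithelial markers summed to 239.8 to 426 CPM fresh and to 161 to 193 CPM in culture. The 5 erythroid genes summed to 70.6 to 3148 CPM fresh and to 0.602 and 1.86 CPM in culture. Neutrophil markers summed to 70.7 to 80.8 CPM fresh and to 76.3 and 82.6 CPM in culture, but went both ways: Csf3r was at 51.7 to 57.7 CPM fresh and at 26.9 and 19.3 CPM in culture, S100a8 at 2.17 to 4.39 and at 15.9 and 22.0 CPM, and Cxcr2 at 14.7 to 19.0 and at 33.5 and 41.2 CPM. The 8 T and B cell genes summed to 9.08 CPM or less fresh and 2.43 CPM or less in culture. The alveolar macrophage markers summed to 26333 to 33051 CPM fresh and to 19623 and 21536 CPM in culture, but went both ways. Chi3l3, the most abundant of them, was at 14992.5 to 21782 CPM fresh and at 5387 and 5744 CPM in culture. Lpl was higher in culture, at 7092 and 4794 CPM against 1472 to 2709 CPM fresh. Itgax was higher too, at 3303 and 2843 CPM against 1251 to 1869 CPM. In such bulk samples, fewer cells of a type and less RNA per cell cannot be told apart, and the part of these markers in the members' levels was not tested.

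Genotype was tested at each age. At 4 weeks 0 of 8 members passed in edgeR, where 0.667% of all genes were called. Over all 12748 genes, 1525 had an unadjusted edgeR p under 0.05. Of the members, 2 had such a p and 2 passed in DESeq2 (its count over all genes is given below). These were Gstm1 and Mgst2, 2 of 8 higher without overlap, as were 24% of all genes. Wild-type libraries held Gstm1 at 267 and 272 CPM and knockout libraries at 414 and 410.1 CPM, which is 0.61 ± 0.17 higher on the log2 scale (edgeR adjusted p = 0.161, DESeq2 adjusted p = 0.0118). For Mgst2 the wild-type libraries were at 5.10 and 5.02 CPM and the knockout libraries at 17.0 and 17.4 CPM, or 1.77 ± 0.37 higher on that scale (edgeR adjusted p = 0.0568, DESeq2 adjusted p = 0.000171). Both also passed with only the 4-week libraries in the fit (edgeR adjusted p = 0.000523 and 0.000801). The share of all genes called in that fit is not given here, so nothing further is read from it. The other 6 members overlapped between genotypes and had log2 fold changes between -0.31 (Gsta4) and 0.23 (Gstm5). Markers of other cells also differed at 4 weeks. Erythroid genes summed to 1330 to 3148 CPM in wild type and to 348 to 643 CPM in knockout. Club and ciliated markers overlapped in sum, at 380 to 429 CPM in wild type and 361 to 715 CPM in knockout, and went both ways. The ciliated cell gene Tppp3 was at 121 and 92.5 CPM in wild type against 37.4 and 47.4 CPM in knockout. Tubb4b was at 196 and 172 CPM in wild type against 216 and 241 CPM in knockout. Knockout replicate 2 stood apart in Scgb1a1, at 185 CPM beside 22.9 CPM in replicate 1 and 25.99 and 10.7 CPM in wild type, while the knockout libraries were close to each other in Gstm1 and Mgst2. The part of these markers in the members' levels was not tested. NRF2 target genes were already known to rise in these 4-week libraries, so these values are no independent evidence of that pattern.

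At 10 weeks 0 of 8 members passed in edgeR, where 0.11% of all genes were called, and 0 passed in DESeq2. An unadjusted edgeR p under 0.05 was found for 0 members and for 1244 of all 12748 genes. Knockout libraries held Gstm1 at 216 and 264 CPM, on either side of the wild-type libraries (249.7 and 232 CPM), and the log2 fold change was -0.01 ± 0.17. For Mgst2, knockout replicate 2 alone was high, with 11.2 CPM beside 4.05 CPM in knockout replicate 1 and 5.66 and 4.12 CPM in the wild-type libraries. The log2(CPM + 1) difference in Mgst2 was -0.40 within replicate 1 (male) and 1.25 within replicate 2 (female). Gsto1 and Mgst1 did not overlap, with 183 and 219 CPM and with 239 and 239.7 CPM in knockout. Their log2 fold changes were 0.23 ± 0.12 and 0.17 ± 0.11 (edgeR adjusted p = 0.579 and 0.682), and 19.7% of all genes were higher without overlap. Scgb1a1 was higher in the knockout libraries of this age (171 and 145 CPM) than in the wild-type ones (29.8 and 30.5 CPM), and its part in these values was not tested.

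The knockout difference at 10 weeks minus that at 4 weeks passed for 0 of 8 members in edgeR, where 0.188% of all genes were called. In DESeq2 0 members passed. An unadjusted edgeR p under 0.05 was found for 2 members and for 1103 of all 12748 genes. This difference between ages was -0.62 ± 0.24 for Gstm1 and -1.20 ± 0.53 for Mgst2 on the log2 scale (edgeR adjusted p = 0.526 and 0.57). Left out one at a time, the libraries moved the Mgst2 value between -2.06 (without 10-week knockout replicate 2) and -0.59 (without 10-week knockout replicate 1). With no filter on low counts both passed (edgeR adjusted p = 0.0217 and 0.0167). That fit also called more of all genes between genotypes (given below). Its count over all genes for this difference is not given here, so nothing is read from the 2 calls.

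Between ages in knockout, 3 members had an unadjusted edgeR p under 0.05, beside 3265 of all 12748 genes. In DESeq2 3 members (Gstm1, Mgst2 and Mgst3) passed, and its share over all genes is not given here. After adjustment in edgeR, the only member that passed was Gstm1. Its age difference was not shown to differ between the genotypes (edgeR adjusted p = 0.526, above). Gstm1 was at 216 and 264 CPM at 10 weeks and at 414 and 410.1 CPM at 4 weeks, and fell by 0.78 ± 0.17 on the log2 scale (edgeR adjusted p = 0.0154). This was 1 of 8 members, where 9.73% of all genes were called and 4.83% fell. Left out one at a time, the call was lost without 10-week knockout replicate 1, without 4-week knockout replicate 1 and without 4-week knockout replicate 2, with adjusted p of 0.109, 0.0787 and 0.0971. For Mgst2 the log2 fold change was -1.23 ± 0.36 and for Mgst3 0.49 ± 0.15 (edgeR adjusted p = 0.053 and 0.0592). Mgst2 was at 4.05 and 11.2 CPM at 10 weeks and at 17.0 and 17.4 CPM at 4 weeks, and Mgst3 at 64.4 and 60.3 CPM and at 43.4 and 45.5 CPM. The Mgst2 value was -0.62 without 10-week knockout replicate 1 and -2.09 without 10-week knockout replicate 2, where it passed (edgeR adjusted p = 0.00325).

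In wild type 0 of 8 members passed in edgeR between ages, where 2.11% of all genes were called, and 0 passed in DESeq2. An unadjusted edgeR p under 0.05 was found for 1 member and for 2367 of all 12748 genes. Gstm1 had a log2 fold change of -0.16 ± 0.17 and Mgst2 of -0.03 ± 0.39 (edgeR adjusted p = 0.65 and 0.976). The scarce Gsta4 was at 0.0492 and 0.237 CPM at 10 weeks and at 0.978 and 0.483 CPM at 4 weeks, or -2.42 ± 1.06 on the log2 scale (edgeR adjusted p = 0.231). All 4-week libraries belong to 1 series of title numbers. With only the 10-week libraries of that series, which were female, Gstm1 differed by -0.22 in wild type and by -0.64 in knockout on the log2(CPM + 1) scale. The series was the same on both sides there, but the 4-week libraries were not female by Xist, so age and sex cannot be told apart. Erythroid genes summed to 1330 to 3148 CPM in wild type and 348 to 643 CPM in knockout at 4 weeks and to 161 CPM or less at 10 weeks, and their part was not tested.

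**Figure D4:**
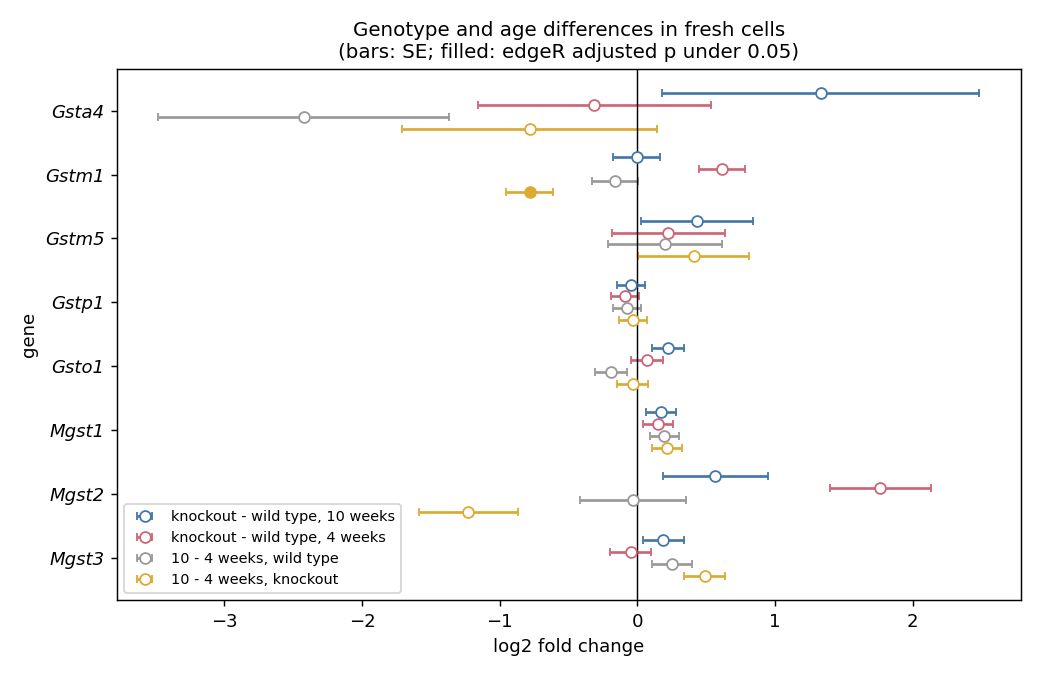
Log2 fold change of 8 members between genotypes at each age and between ages in each genotype, with SE bars; filled points passed an edgeR adjusted p of 0.05. The only filled point is Gstm1 between ages in knockout (-0.78); Mgst2 between genotypes at 4 weeks lies at 1.77.

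Over the 6 groups, Gstm1 thus ran from 10-week knockout and wild type (means 239.9 and 241 CPM) through 4-week wild type (269) and knockout (412) to vitamin D3 (1079) and untreated culture (1778). The 10-week groups overlapped, and each later neighbour lay apart. Mgst2 ran from 10-week wild type (4.89) and 4-week wild type (5.06) through 10-week knockout (7.63), vitamin D3 (15.7) and 4-week knockout (17.2) to untreated culture (20.3). Along that order the neighbours that did not overlap were 10-week knockout and vitamin D3, and 4-week knockout and untreated culture. Mgst3 was lowest with vitamin D3 (26.1) and between 44.5 and 62.3 CPM in the other 5 groups.

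The rest of the pathway was read from lists that hold none of the 9 members. Of 15 tested other transferases and membrane relatives, 3 rose and 2 fell in untreated culture against each age, near the share over all genes (21.2% and 20.1% rose). The same shares are the background of the other list counts in culture. Gstm4, a neighbour of Gstm1, rose by log2 1.05 ± 0.18 and 0.98 ± 0.17 (edgeR adjusted p = 0.000552 and 0.000921). Hpgds, the haematopoietic prostaglandin D synthase, rose by 3.35 ± 0.32 and 1.71 ± 0.29, and Ltc4s, leukotriene C4 synthase, fell by 0.69 ± 0.14 and 1.13 ± 0.14. Of 20 tested genes of glutathione synthesis, salvage and conjugate export, 11 rose and 3 fell against 10 weeks, and 12 rose and 3 fell against 4 weeks. Slc7a11, the cystine importer that feeds glutathione synthesis, rose by 3.19 ± 0.40 and 2.79 ± 0.39, and the exporter gene Abcc5 by 1.39 ± 0.11 and 1.55 ± 0.11.

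Of 22 tested peroxidases and redoxins, 15 rose and 1 fell against 10 weeks and 12 rose and 2 fell against 4 weeks. Srxn1, the sulfiredoxin that repairs peroxiredoxins, rose by log2 2.76 ± 0.28 and 2.91 ± 0.28, and Txnrd1, thioredoxin reductase, by 1.60 ± 0.17 and 1.88 ± 0.17. Of 22 tested genes of the NRF2 and aryl hydrocarbon receptor axis, 13 rose and 2 fell against 10 weeks and 16 rose and 0 fell against 4 weeks. Nfe2l2, which encodes NRF2, rose by 0.97 ± 0.14 and 1.13 ± 0.14 and its target Osgin1 by 3.57 ± 0.34 and 3.35 ± 0.33. Of 22 tested other conjugating and carbonyl-reducing enzymes, 8 rose and 3 fell, and 10 rose and 1 fell. Aldh2, mitochondrial aldehyde dehydrogenase, rose by 2.37 ± 0.12 and 2.50 ± 0.12. List medians ran from 0.02 to 0.67 log2 against the 2 ages, beside -0.02 over all genes.

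In knockout at 4 weeks, where 0.667% of all genes were called, 0 of 15 transferases and 0 of 20 glutathione supply genes passed in edgeR, while 2 of 22 peroxidases and redoxins rose (Gsr, glutathione reductase, by log2 0.97 ± 0.13, and Glrx, a glutaredoxin, by 1.24 ± 0.13). Of those transferases 0 and of the supply genes 9 had an unadjusted edgeR p under 0.05, beside 1525 of all 12748 genes. In DESeq2 0 and 5 of them rose. In the NRF2 and aryl hydrocarbon receptor list 4 of 22 rose, among them Hmox1, haem oxygenase, by 2.37 ± 0.18 and Me1, an NADPH-making malic enzyme, by 3.54 ± 0.36, and of the 22 other conjugating enzymes 2 rose (Aldh2 by 1.47 ± 0.11 and Akr1b8 by 2.08 ± 0.34). Gclm, a subunit of the enzyme that limits glutathione synthesis, did not pass, with knockout libraries at 106 and 113 CPM and wild-type libraries at 43.9 and 35.6 CPM (edgeR adjusted p = 0.0663). At 10 weeks, where 0.11% of all genes were called, 0 genes of the 5 lists passed in edgeR. At an unadjusted edgeR p under 0.05 there were 2 to 3 per list, beside 1244 of all 12748 genes. In DESeq2 1 transferase relative and 1 supply gene rose. From 4 to 10 weeks in knockout, where 4.83% of all genes fell, 3 of 20 supply genes fell, namely Slc7a11 (by 2.22 ± 0.39), Gclm (by 1.42 ± 0.32) and Abcc5 (by 0.55 ± 0.11). In the same comparison 6 of 22 peroxidases and redoxins and 5 of 22 NRF2 axis genes fell and 0 rose, while of the other conjugating enzymes 3 rose and 3 fell. Between ages in wild type, where 2.11% of all genes were called, Hpgds alone passed in these lists in edgeR and fell by 1.64 ± 0.32. In DESeq2 3 transferases or relatives and 1 supply gene fell, and 1 NRF2 axis gene rose.

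With vitamin D3, where 10.6% of all genes were called, 4 of the 20 supply genes rose and 3 fell. Gss, glutathione synthetase, was at 69.6 and 55.1 CPM with and at 16.0 and 18.1 CPM without vitamin D3 (log2 1.88 ± 0.19, edgeR adjusted p = 0.000103). Of the 15 other transferases and relatives, 1 rose and 3 fell. Gstm4 fell by 0.90 ± 0.17 and Alox5ap, which presents arachidonic acid for leukotriene synthesis, by 1.14 ± 0.15 on the log2 scale. Of the 22 other conjugating enzymes 3 rose and 1 fell. Among them Ephx2, soluble epoxide hydrolase, rose by 3.29 ± 0.44 on the log2 scale. Of the 22 peroxidases and redoxins 0 rose and 3 fell, and of the 22 NRF2 axis genes 2 rose and 1 fell.

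**Figure D5:**
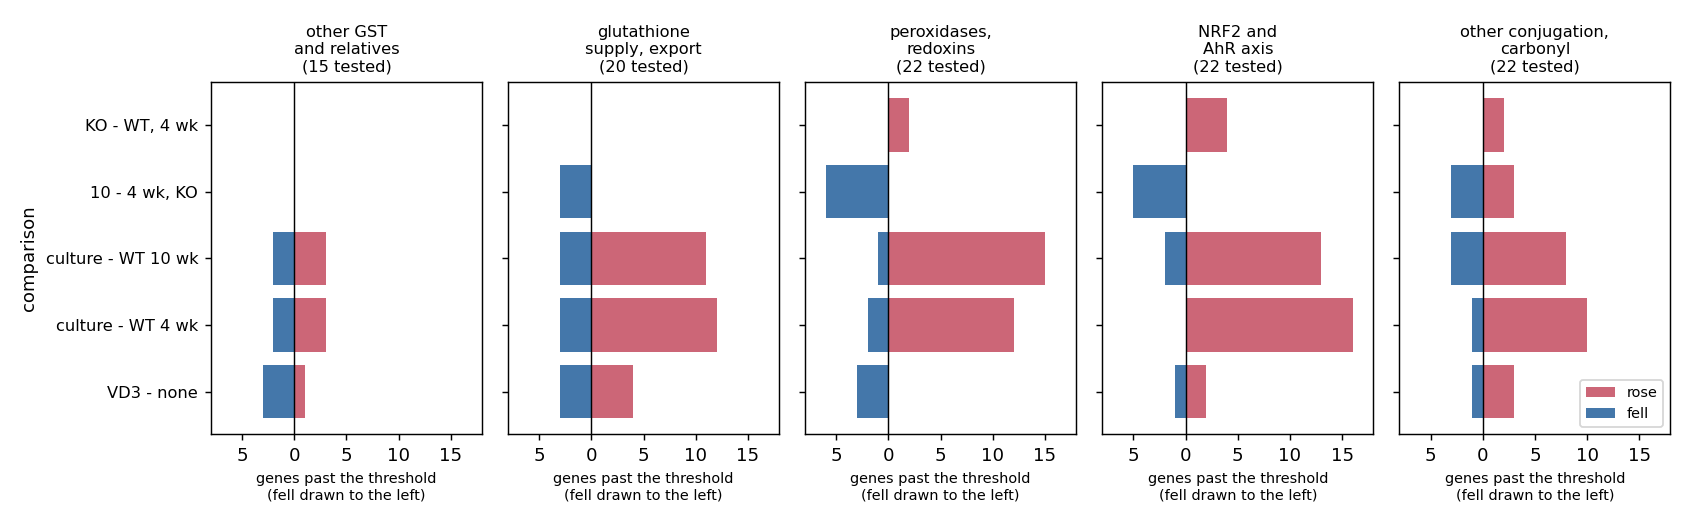
Number of genes past an edgeR adjusted p of 0.05 in 5 pathway lists and 5 comparisons, with genes that rose to the right of 0 and genes that fell to the left. Untreated culture against fresh wild type gives the longest bars, up to 16 of 22 genes that rose in the NRF2 and aryl hydrocarbon receptor list.

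Genes with the most similar pattern were sought for the 6 members past the threshold in some test. The measure was the root-mean-square difference of centred log2(CPM + 1) over 12 libraries, among 9710 genes averaging at least 5 CPM. For Gstm1 they were Aldoc (0.24), Cd300a (0.29) and Cstb (0.29), where the median gene was at 1.13. For Mgst2 they were Tef (0.36), Mocos (0.37) and Arhgap19 (0.40), with a median of 0.85. For Gstm5, Ddt, 1190005I06Rik and Arid3a lay at 0.22, 0.22 and 0.23. For Gstp1 (Tmem50a, Gng5 and Clta), Gsto1 (Znhit2, Pnrc2 and Fermt3) and Mgst1 (Tmed10 and Lrrfip2) the values were 0.06 to 0.09, as their levels varied little.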

How the data were processed

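Extraction used the RNeasy Micro kit (Qiagen) and library preparation the KAPA mRNA HyperPrep kit, per the labels' protocols. The authors deposited raw counts per gene, with 1 column per library. TopHat2, edgeR and the build mm9 are named, per the submitters' processing notes. The sources used here give no versions, counting tool, strand setting or annotation. A second deposited table, of normalised values, was not used.

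Those counts were compared with edgeR 4.0.16 (quasi-likelihood F test; limma 3.58.1, R 4.3.3) after TMM scaling and filterByExpr (minimum count 10, minimum total 15). The filter kept 12748 genes and all 9 members, Gsta2 only through vitamin D3. A single model held all 12 libraries, with a term for each group, leaving 6 residual degrees of freedom. Benjamini-Hochberg adjustment ran over all genes tested, at a threshold of 0.05. Gsta2 was fitted with the other genes kept, but its test values were set aside, as it had at most 1 count outside vitamin D3. A count was worth 0.0483 to 0.0904 CPM. Errors after ± are SE, with 2 libraries a group. Intervals are exact and cover counting error only.

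The members and gene lists were chosen with earlier results of these data known. Named were the members, up to 4 genes per list and comparison with the smallest p among those past the threshold, and the 3 genes of likest pattern per member past it; 2 genes that this rule names are not reported here. Copies of members, Gclm at 4 weeks, the check genes Xist, Vdr and Cyp24a1, and single cell type markers were named outside that rule, some after their values were seen. Coding sequences stood in for proteins in the identities. Alternatives were DESeq2 1.42.0, its size factors, no filter, a filter of 5 CPM in 2 libraries, the compared groups alone, a replicate block, exchanged 10-week labels, no female libraries and each library left out. The code was tested on simulated counts.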

Additional observations from a re-analysis of the deposited data

How the results depend on the processing

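Depth limits Gsta2, whose 3-count floor lies at 0.145 to 0.271 CPM, and Gsta4, which the stricter filter removed. With 2 libraries a group, small differences change sign easily. The number of members past the threshold between genotypes at 4 weeks went from 0 to 2 with DESeq2, 2 with no filter and 2 with the compared groups alone, and between ages in knockout from 1 to 3, 3 and 2 in the same order. For the difference between the genotype effects it went from 0 to 2 with no filter. Without both female 10-week libraries it was 2 between ages in knockout, and 4 rather than 6 in culture against 10 weeks, as also with the 10-week labels exchanged or with the compared groups alone. Over all genes, DESeq2 called 146 rather than 14 between genotypes at 10 weeks and 257 rather than 85 at 4 weeks, and with no filter these were 503 and 690. The cause was not tested. Calls over all genes in the other comparisons, and with the compared groups alone, the female libraries removed or the labels exchanged, are not given here. The members counted past the threshold there thus have no background share, and nothing is read from them.

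Some log2 fold changes reversed, all in tests that the member had not passed. Gstm1 between genotypes at 10 weeks was 0.0046 with DESeq2 and 0.0047 with its size factors. With the labels exchanged, the 10-week genotype difference was -0.21 for Gsta4, 0.089 for Gstm1 and 0.099 for Gstp1; the interaction was -0.12 for Mgst1; the age difference was -0.023 for Gstm5 in wild type and 0.043 for Gstp1 in knockout; and culture against 10 weeks was -0.29 for Gsta4. Without both female libraries, the genotype difference was 0.0046 for Gstp1 and -0.49 for Mgst2, the interaction -0.013 for Gsto1, the age difference -0.22 for Gstm5 and 0.17 for Mgst2 in wild type and -0.073 for Gstm5 in knockout, and culture against 10 weeks 0.013 for Mgst3; the cause was not tested.

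Leaving out each library in turn, the number of members past the threshold ranged from 0 to 2 between ages in knockout and from 3 to 6 in culture against 10 weeks. With vitamin D3 the lower bound for Gsta2 ranged from 46.9 to 134-fold, and the log2 fold change from -0.48 to 1.65 for Gsta4, from -0.57 to 0.24 for Gstm5, from -0.23 to -0.081 for Mgst1 and from -0.67 to -0.12 for Mgst2. Ranges that crossed 0 between genotypes at 10 weeks were -0.16 to 0.13 (Gstm1), -0.048 to 0.85 (Gstm5), -0.12 to 0.028 (Gstp1) and -0.29 to 1.18 (Mgst2). At 4 weeks they were -1.09 to 0.25 (Gsta4), -0.16 to 0.55 (Gstm5) and -0.20 to 0.13 (Mgst3). For the interaction they were -0.27 to 0.63 (Gstm5), -0.038 to 0.12 (Gstp1) and -0.095 to 0.14 (Mgst1). Between ages they were -0.22 to 0.56 (Gstm5), -0.14 to 0.0012 (Gstp1) and -0.30 to 0.17 (Mgst2) in wild type, and -0.073 to 0.82 (Gstm5), -0.17 to 0.091 (Gsto1) and -0.068 to 0.012 (Gstp1) in knockout. In culture they were -0.24 to 1.86 (Gsta4) and -0.34 to 0.013 (Mgst3) against 10 weeks and -0.074 to 0.23 (Mgst3) against 4 weeks.

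The labels' replicate numbers were not taken to pair the libraries, since same-numbered libraries deviated together with correlations of 0.17 at 10 weeks, -0.18 at 4 weeks and 0.36 in culture, over only 2 pairs each. With the replicate block, 1 member passed between genotypes at 4 weeks and 2 between ages in knockout, Mgst2 in wild type between ages was 0.028, and the other counts of members kept their size. With the 4-week numbers crossed, an alternative chosen after seeing the data, 2 members and 277 genes passed at 4 weeks, against 146 genes in the uncrossed block.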
